A study of Mus musculus with 12 samples.

Results

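The genes described here encode subunits of potassium, sodium and calcium channels. They were taken from both deposited tables by symbol, as the Kcn, Scn and Cacn families of the mouse nomenclature, which gave 137 of 24421 rows. By family these were 40 pore-forming alpha subunits of voltage-gated potassium channels (Kv), 15 inward rectifiers (Kir) and 14 leak channels of the K2P class. A further 8 were Kcnma, Kcnn, Kcnt and Kcnu potassium channels, grouped as KCa and KNa because most are gated by calcium or sodium. Another 16 were auxiliary potassium channel subunits. The sodium channels gave 10 alpha (Nav alpha) and 4 beta subunits, and the calcium channels 10 alpha1 (Cav alpha1), 4 alpha2delta, 4 beta and 8 gamma subunits. The remaining 4 members, Kcnq1ot1, Kcnd3os, Kcnmb4os1 and Kcnmb4os2, are noncoding RNAs that carry a channel symbol and encode no subunit. Reads were found for 134 members, and Kcna10, Kcnj1 and Kcnmb3 had 0 reads in all 12 libraries.

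RNA sequencing had been done on polyA RNA of mouse tissue in 4 groups of 3 libraries. ETV5 tumours were ependymomas with the fusion ZFTA-RELA, an oncogenic transcription regulator, and with overexpressed human ETV5, an ETS transcription factor, in addition. NPY tumours carried the same fusion with an overexpressed human NPY, the precursor of neuropeptide Y. Control tumours carried ZFTA-RELA alone, so the fusion is shared by all 9 tumour libraries, and cortex was wild-type tissue without tumour. The sources used here do not state the animals' age and strain, how the fusion and the added genes were introduced or what drives them. The labels do not say whether replicates were separate animals, so p-values cover only the spread among these libraries, which may be technical.

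Voltage-gated sodium and calcium channels open when a membrane depolarizes and carry the inward current of action potentials and of calcium entry, while potassium channels return the membrane to rest. Inward rectifiers and K2P channels set the resting potential, in neurons and also in glia, muscle and epithelia. The alpha subunit forms the pore, and auxiliary subunits change its gating and its delivery to the membrane. Grey matter of the cortex expresses many of these genes because neurons do, whereas Kcnj10 is known as the inward rectifier of astrocytes.

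Depth, as reads recovered from the deposited normalized signal, was 6691146 to 11291057 in ETV5 tumours, 8214523 to 10481943 in NPY tumours, 6266613 to 9443466 in control tumours and 5962376 to 7444467 in cortex. Levels are given as CPM, the reads of a gene scaled to a common library total, for replicates 1, 2 and 3 in that order. The added genes were human, and the mouse loci do not measure them directly. Whether reads of the human genes were counted at the mouse loci was not tested. Mouse Etv5 stood at 407, 474 and 401 CPM in ETV5 tumours against 264, 322 and 299.5 CPM in control tumours. Mouse Npy stood at 5.59, 2.19 and 15.9 CPM in NPY tumours against 27.2, 21.5 and 46.1 CPM in control tumours. The summed level of 8 pan-neuronal markers, as a percentage of its mean in cortex, was 1.86, 8.85 and 3.38% in ETV5 tumours, 1.25, 0.751 and 1.99% in NPY tumours and 5.86, 5.79 and 14.5% in control tumours. The cortex libraries held 8 excitatory neuron markers of their labelled tissue, at 5555, 5785 and 4622 CPM summed, and also choroid plexus transcripts. The tumour libraries shared 4 markers of tumour and dividing cells (Vim, Nes, Mki67 and Cdk1) at 1993 to 2097 CPM summed in ETV5 tumours, 1793 to 2738 CPM in NPY tumours and 2384 to 2628 CPM in control tumours, against 54.8 to 59.8 CPM in cortex.

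Control tumours were set against cortex to ask how the channel repertoire of the tumour differs from that of wild-type cortex. Most channel genes were lower in the tumours, and a small group, among them the inward rectifier Kcnj12 and the calcium channel subunit Cacna2d2, was higher. Of 137 members 115 passed the filter on low reads and were tested with limma, taking log2(deposited value + 1), a scale that understates changes of genes with few reads. At an adjusted p under 0.05, 89 of these fell and 15 rose, and 11 were not called. Over all 14621 genes tested, 36.2% fell, 35.7% rose and 72% were called in either direction. The median log2 fold change was -2.83 over the tested members and -0.003 over all genes tested. Falls of at least 4-fold were called for 75 members and rises of that size for 10, where 13.3% and 14.2% of all genes tested reached them. All 3 control libraries were below all 3 cortex libraries for 90 members and above them for 16, against 38.9% and 38.3% of all genes. At an unadjusted p under 0.05 there were 90 lower and 15 higher members, against 37.4% and 36.8%. In bulk tissue, fewer cells of a type and less RNA per cell cannot be told apart.

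All 137 members together took 1934, 3036 and 3161 CPM in ETV5 tumours, 2041, 2723 and 1855 CPM in NPY tumours, 2827, 2632 and 3188 CPM in control tumours and 8996, 8907 and 9077 CPM in cortex. Each tumour library was thus below each cortex library in the summed level. The 89 genes that fell took 28.2, 51.3 and 29.9% of the channel reads of ETV5 tumours, 22.1, 24.8 and 31.2% in NPY tumours, 39.6, 40.1 and 51.1% in control tumours and 92.3, 90.8 and 91.9% in cortex. The 15 that rose took 54.6, 34.6 and 48.7% in ETV5 tumours, 61.0, 51.9 and 47.8% in NPY tumours, 39.1, 34.6 and 28.5% in control tumours and 1.11, 1.18 and 1.62% in cortex. Both sets were chosen by the contrast of control tumours with cortex, so these shares are a description of how the repertoire is made up. Over the 89 genes that fell, the median level as a percentage of cortex was 4.47, 9.53 and 5.63% in ETV5 tumours, 3.19, 3.14 and 3.28% in NPY tumours and 8.46, 9.42 and 16.4% in control tumours. ETV5 replicate 2 and control replicate 3 were the highest of their groups in this median and in the pan-neuronal percentage above. The part of neuronal tissue in these medians was not tested.

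**Figure D1:**
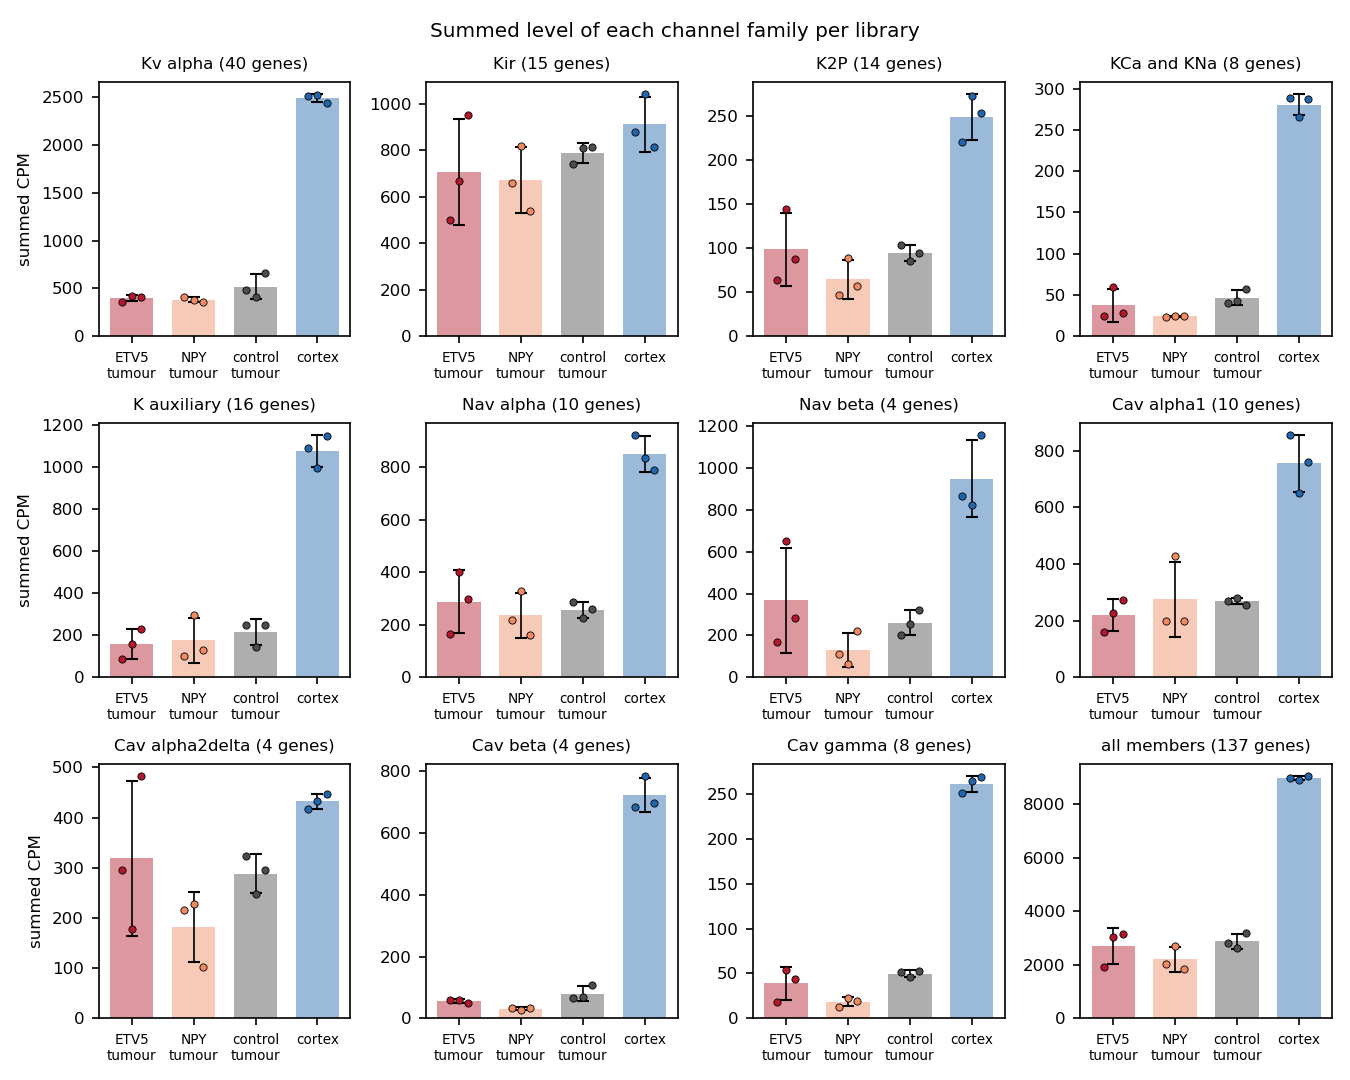
Summed CPM of each channel family per library (points), with the mean of 3 libraries (bars) and SD (error bars) for ETV5 tumours, NPY tumours, control tumours and cortex. The 3 cortex libraries lie above the 9 tumour libraries in most panels, while the inward rectifiers (Kir) overlap, with 741 to 816 CPM in control tumours and 813 to 1043 CPM in cortex.

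**Figure D2:**
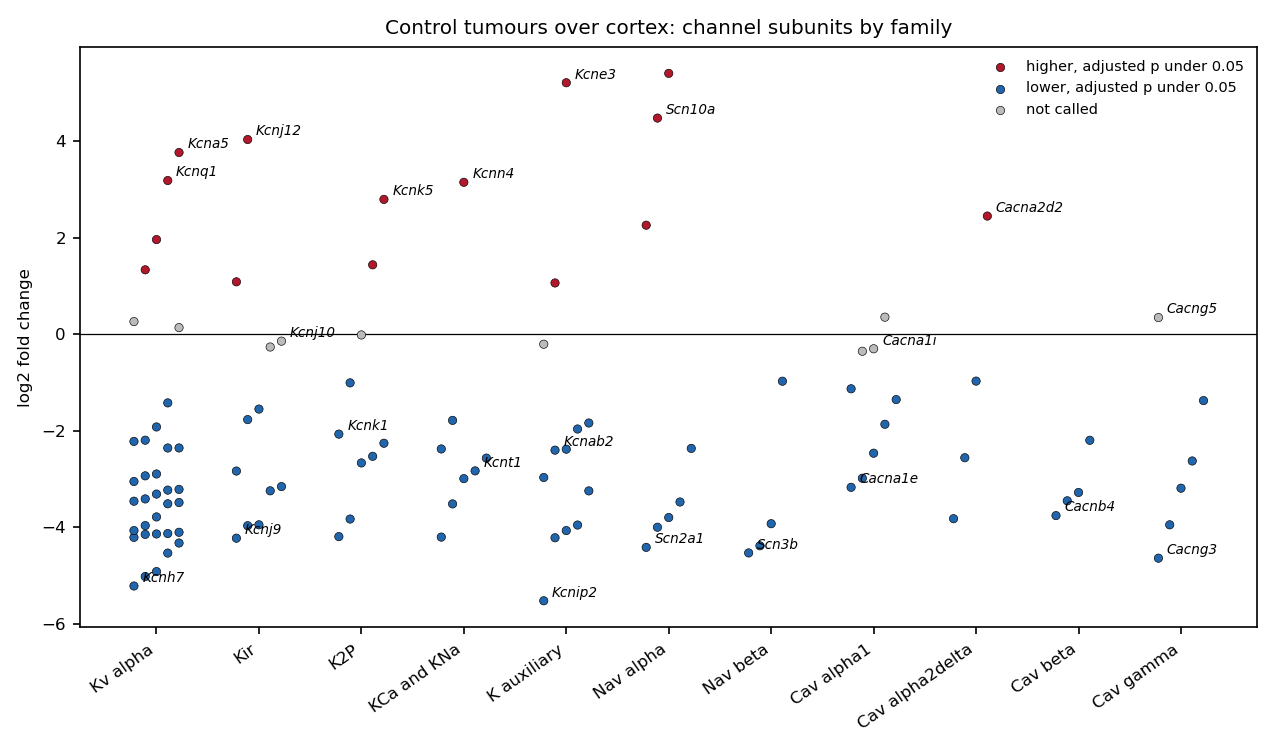
Log2 fold change of control tumours over cortex for each tested subunit, by family, on a linear axis. Red points rose and blue points fell at an adjusted p under 0.05, and grey points were not called; Kcnip2 is the lowest at -5.52.

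Of the 8 tested sodium channel alpha subunits, which form the pore, 5 fell. Scn10a, a sodium channel known from sensory neurons, was among those that rose. It stood at 34.8, 8.26 and 2.55 CPM in control tumours, against 0.403, 0 and 0.696 CPM in cortex (log2 fold change 4.48, SE 1.0, adjusted p = 0.00363). Its log2 fold change was 3.52 without control replicate 1, 5.39 without control replicate 3 and 3.67 without cortex replicate 2.

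Scn2a1, the sodium channel of cortical excitatory neurons, stood at 1.97, 22.0 and 10.9 CPM in ETV5 tumours, 2.67, 2.19 and 2.29 CPM in NPY tumours, 12.5, 14.6 and 29.5 CPM in control tumours and 363, 327 and 314 CPM in cortex. Each tumour library was below each cortex library, and the fall in control tumours was 21.3-fold (log2 fold change -4.41, SE 0.27, adjusted p = 2.6e-06). Scn7a, an atypical family member known for sensing sodium, also rose, at 14.1, 6.82 and 30.5 CPM in control tumours, against 1.88, 3.35 and 2.64 CPM in cortex (log2 fold change 2.26, SE 0.49, adjusted p = 0.00318). It lies 38.5 kb from Scn9a on chromosome 2, which fell (log2 fold change -2.36, SE 0.36, adjusted p = 0.00041), so these neighbours moved in opposite directions. Scn9a is named here as a neighbour, after its values were seen.

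Per kb of merged exons, which allows genes to be compared, Scn2a1 made up 2.46 ± 1.55% of the sodium channel alpha level in ETV5 tumours, 0.762 ± 0.269% in NPY tumours, 5.56 ± 2.95% in control tumours and 40.8 ± 0.365% in cortex (SD, n = 3). In CPM the family as a whole summed to 163, 402 and 298 in ETV5 tumours, 218, 329.7 and 161 in NPY tumours, 286, 226 and 259.9 in control tumours and 923, 835 and 788 in cortex.

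**Figure D3:**
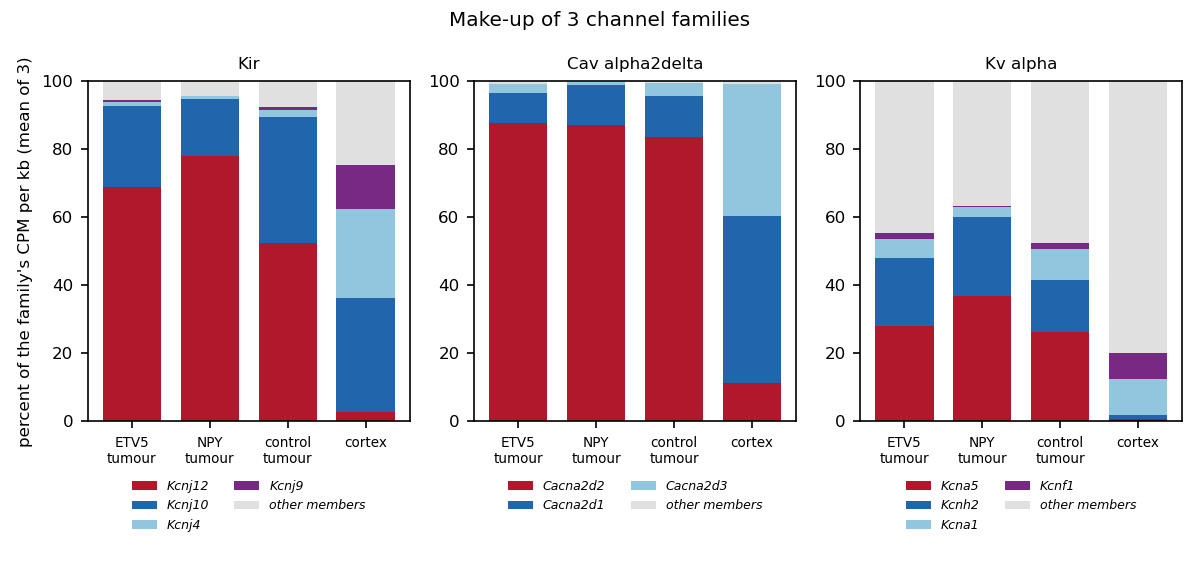
Make-up of 3 channel families in ETV5 tumours, NPY tumours, control tumours and cortex, as the percentage of the family's CPM per kb taken by each named gene (mean of 3 libraries, stacked to 100). Kcnj12 and Cacna2d2 take the largest segment of their families in each of the 3 tumour groups (52.5% and 83.6% in control tumours) and 2.62% and 11.3% in cortex.

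Of the 35 tested Kv alpha subunits 29 fell and 4 rose. Among the risers were Kcna5, Kcnq1 and Kcnh2, of which Kcnh2 was named after its values were seen. Kcna5, a delayed rectifier of atrial and vascular muscle, stood at 128, 34.5 and 53.7 CPM in ETV5 tumours, 175, 53.7 and 90.6 CPM in NPY tumours, 99.6, 33.4 and 109.6 CPM in control tumours and 3.49, 2.01 and 13.1 CPM in cortex. Every tumour library was above every cortex library, although the tumour levels themselves spread widely, and cortex replicate 3 was the highest of its group. Control tumours were 13.6-fold above cortex (log2 fold change 3.77, SE 0.66, adjusted p = 0.00093), with a log2 fold change of 4.51 without cortex replicate 3. Kcnq1, a channel of heart muscle and epithelia, stood at 4.13, 5.06 and 10.7 CPM in control tumours, against 0.403, 0.671 and 0.418 CPM in cortex (log2 fold change 3.19, SE 0.44, adjusted p = 0.00023). Its antisense RNA Kcnq1ot1 overlaps it on the opposite strand and was not called (log2 fold change 0.31, SE 0.23, adjusted p = 0.248). The library kit was stranded per the labels, but the sources used here do not say whether counting used the strand. Reads of this pair could thus be mixed over the 2.96% of the exonic bases of Kcnq1 that overlap Kcnq1ot1. The rise of Kcnh2, the channel of cardiac repolarization, was 2.53-fold (log2 fold change 1.34, SE 0.25, adjusted p = 0.00128).

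The fall of Kcnq3, a subunit of the neuronal M-current, was 18.5-fold (log2 fold change -4.21, SE 0.32, adjusted p = 6.7e-06). Among the largest falls were Kcnh7 and Kcnh5, of the ether-a-go-go family, and Kcnv1 and Kcng1, subunits that form no channel alone and modify others. Kcnv1 stood at 1.80, 3.30 and 7.66 CPM in control tumours, against 86.4, 145 and 97.9 CPM in cortex (log2 fold change -5.02, SE 0.45, adjusted p = 1.8e-05). Kcnh7 stood at 0.106, 0.660 and 0.957 CPM in control tumours, against 20.7, 23.6 and 14.9 CPM in cortex (log2 fold change -5.21, SE 0.55, adjusted p = 4.5e-05). Its log2 fold change was -4.56 without control replicate 1. Control and cortex libraries did not overlap for either gene. Kcng1 (log2 fold change -4.91, SE 0.51, adjusted p = 4.1e-05), Kcnh5 (log2 fold change -4.53, SE 0.46, adjusted p = 3.7e-05) and Kcnc2, a channel of fast-spiking interneurons (log2 fold change -4.32, SE 0.36, adjusted p = 1.1e-05), also fell. Kcna3, a channel known from lymphocytes and microglia, fell to 1.16, 1.87 and 1.12 CPM in control tumours, against 4.30, 3.86 and 2.37 CPM in cortex (log2 fold change -1.42, SE 0.39, adjusted p = 0.0104). The summed level of 7 microglia and macrophage markers was 2385 to 5227 CPM in control tumours and 456 to 534 CPM in cortex, with 6 of the 7 higher and P2ry12 lower in control tumours, and their part was not tested.

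Neighbouring Kv genes on chromosome 6 differed in direction. Kcna5 (chromosome 6, 126532551 to 126535412, minus strand) rose, while Kcna1, 105 kb away, and Kcna6, another 61.9 kb on, fell; both are named as neighbours after their values were seen. Kcna1, an axonal shaker-type channel, stood at 54.6, 23.2 and 63.4 CPM in control tumours, against 174, 182 and 180.3 CPM in cortex (log2 fold change -2.22, SE 0.31, adjusted p = 0.00025). Kcna6, of the same family, stood at 29.9, 26.0 and 37.2 CPM in control tumours, against 105, 119.8 and 87.4 CPM in cortex (log2 fold change -1.92, SE 0.17, adjusted p = 1.5e-05). Of the exonic bases of Kcna6, 39.6% overlap a gene on the other strand (Gm26673), whose reads cannot be told apart from it unless counting used the strand. The 250 bases before the RefSeq starts of Kcna5 (chr6:126535556-126535805, minus strand) and Kcna6 (chr6:126740675-126740924, minus strand, both GRCm38.p6) are shown for this pair because they share a cluster and moved apart. The bases run 5′ to 3′ on the gene's strand, and capitals mark CG dinucleotides, of which the windows hold 3 and 8.
Kcna5: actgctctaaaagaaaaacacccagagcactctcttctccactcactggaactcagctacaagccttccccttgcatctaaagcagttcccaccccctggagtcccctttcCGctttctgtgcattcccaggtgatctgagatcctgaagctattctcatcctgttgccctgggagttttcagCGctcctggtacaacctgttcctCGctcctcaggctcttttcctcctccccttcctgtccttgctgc
Kcna6: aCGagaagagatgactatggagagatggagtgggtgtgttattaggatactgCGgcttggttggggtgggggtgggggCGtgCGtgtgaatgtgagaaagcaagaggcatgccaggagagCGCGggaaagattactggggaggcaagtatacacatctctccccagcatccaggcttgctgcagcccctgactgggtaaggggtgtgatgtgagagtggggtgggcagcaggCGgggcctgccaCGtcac

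The inward rectifiers kept most of their summed level, 741, 811 and 816 CPM in control tumours against 877, 1043 and 813 CPM in cortex, with another composition. Kcnj12, a strong inward rectifier of muscle and neurons, stood at 314, 339 and 499.8 CPM in ETV5 tumours, 491, 534 and 324 CPM in NPY tumours, 288, 323 and 281 CPM in control tumours and 14.5, 19.0 and 14.8 CPM in cortex. Even the lowest tumour library was far above the highest cortex library, and control tumours were 16.4-fold above cortex (log2 fold change 4.03, SE 0.15, adjusted p = 5.9e-07). Of the CPM per kb of the family it made up 68.9 ± 4.50% in ETV5 tumours, 78.2 ± 5.90% in NPY tumours, 52.5 ± 3.11% in control tumours and 2.62 ± 0.129% in cortex (SD, n = 3). Kcnj10, the potassium-buffering rectifier of astrocytes, stood at 394, 405 and 436 CPM in control tumours, against 373, 512 and 341 CPM in cortex and was not called (log2 fold change -0.14, SE 0.16, adjusted p = 0.461). The summed level of 7 astrocyte markers was 62.0, 54.5 and 54.1% of the cortex mean in the same control tumours, a sum over markers that went opposite ways. Without overlap 5 of the 7 were lower, among them Slc1a2 at 525, 639 and 611 CPM in control tumours against 4110.3, 4431 and 3466 CPM in cortex. Gfap was higher, at 2599.9, 1744 and 1903 CPM in control tumours against 342, 238 and 305 CPM in cortex, and Aqp4 overlapped. The part of these markers was not tested. Kcnj16, which pairs with Kcnj10, fell to 7.84, 15.5 and 7.02 CPM in control tumours, against 30.5, 24.0 and 21.0 CPM in cortex (log2 fold change -1.55, SE 0.32, adjusted p = 0.00235).

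Kcnj9, a subunit of the rectifiers opened by G proteins, fell to 5.72, 6.16 and 11.3 CPM in control tumours, against 131, 127 and 115 CPM in cortex (log2 fold change -4.22, SE 0.23, adjusted p = 1.7e-06). It lies 11.9 kb from Kcnj10 on chromosome 1, which was not called. Kcnj8, the pore of the vascular channel inhibited by ATP and a marker of pericytes, rose to 9.64, 13.9 and 11.5 CPM in control tumours, against 4.43, 6.21 and 3.90 CPM in cortex (log2 fold change 1.09, SE 0.27, adjusted p = 0.00673). This call was lost with the ETV5 libraries in the same fit (adjusted p = 0.074 with limma). Its regulatory partner Abcc9, outside the symbol rule, stood at 16.8, 21.9 and 22.0 CPM in control tumours against 7.52, 8.89 and 4.59 CPM in cortex. The 6 markers of pericytes and smooth muscle, which include both of these genes, summed to 351 to 395 CPM in control tumours and 61.3 to 80.7 CPM in cortex, with 0 of the 6 at 0 reads in either group. Pdgfrb made up most of this sum, at 310, 302 and 261 CPM in control tumours against 28.6, 26.3 and 24.5 CPM in cortex. Without overlap 5 of the 6 were higher. Myh11 overlapped, at 3.49, 1.98 and 1.76 CPM in control tumours against 5.64, 3.86 and 2.92 CPM in cortex. The part of pericytes and smooth muscle in the result was not tested. Kcnj2, a rectifier of muscle, vessels and myeloid cells, stood at 15.1, 24.8 and 26.0 CPM in control tumours, against 17.2, 21.8 and 31.5 CPM in cortex and was not called (log2 fold change -0.26, SE 0.28, adjusted p = 0.416). Kcnj13, known from choroid plexus and named after its values were seen, fell to 1.27, 0.881 and 1.12 CPM in control tumours, against 9.27, 11.4 and 4.04 CPM in cortex (log2 fold change -2.83, SE 0.43, adjusted p = 0.00041). The 3 choroid plexus markers summed to 4.13, 2.75 and 13.7 CPM in the control tumours and 1245, 1374 and 548 CPM in the cortex libraries, in which cortex replicate 3 was lowest for both. Ttr alone stood at 1213, 1346 and 531 CPM in cortex, and Ttr and Kl were lower in control tumours without overlap. Folr1 overlapped, at 1.27, 1.76 and 12.9 CPM in control tumours against 8.33, 6.21 and 3.06 CPM in cortex. The part of these markers was not tested, and 49.1% of the exonic bases of Kcnj13 overlap Gigyf2 on the other strand.

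The windows before the RefSeq starts of Kcnj12 (chr11:61065554-61065803, plus strand) and Kcnj9 (chr1:172329323-172329572, minus strand, both GRCm38.p6) are shown as a rectifier that rose and a rectifier that fell. The start listed for Kcnj12 lies inside the gene as the GENCODE annotation draws it (chromosome 11, 61022564 to 61071131, plus strand), so the window is that of an inner start. The capitals again mark CG dinucleotides, 4 and 5 in the windows.
Kcnj12: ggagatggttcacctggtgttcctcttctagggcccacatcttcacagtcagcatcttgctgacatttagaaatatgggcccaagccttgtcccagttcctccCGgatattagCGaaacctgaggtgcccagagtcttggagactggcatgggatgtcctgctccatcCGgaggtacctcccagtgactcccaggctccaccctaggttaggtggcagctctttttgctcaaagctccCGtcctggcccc
Kcnj9: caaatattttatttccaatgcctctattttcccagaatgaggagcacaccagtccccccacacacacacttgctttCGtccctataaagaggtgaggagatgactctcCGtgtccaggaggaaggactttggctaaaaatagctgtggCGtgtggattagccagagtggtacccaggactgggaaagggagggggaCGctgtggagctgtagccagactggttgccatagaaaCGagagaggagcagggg

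Windows of 250 bases were found for 101 of 137 members in the RefSeq table. The median number of CG dinucleotides was 6 over the 11 risers with a window, 10 over 63 members that fell and 6 over all 27025 genes of the table. On both strands, 2.97% of the members' windows held TATAAA, the letters of a TATA box, against 13.0% of all windows. CGGAAG, the core that ETS factors such as ETV5 bind, was in 3.96% of members' windows and 13.8% of all, and TGANTCA, the AP-1 motif, in 3.96% and 6.87%. These motifs do not contain each other, and a match describes the letters only. Of the 4 windows printed, that of Kcnj9 holds TATAAA, and no other match was found in them.

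Among the K2P leak channels 7 of 10 tested members fell and 2 rose. Kcnk1, a weakly rectifying leak channel, fell to 32.3, 28.1 and 34.3 CPM in control tumours, against 99.4, 147 and 111 CPM in cortex (log2 fold change -2.07, SE 0.17, adjusted p = 1.1e-05), a call lost with the ETV5 libraries in the fit (adjusted p = 0.071 with limma). Of its exonic bases 8.01% overlap a gene on the other strand. Kcnk5, a leak channel opened by alkaline pH and known from kidney, stood at 31.0, 20.9 and 29.3 CPM in ETV5 tumours, 12.6, 31.7 and 13.8 CPM in NPY tumours, 15.9, 9.36 and 15.3 CPM in control tumours and 1.48, 2.68 and 0.974 CPM in cortex. All tumour libraries were above all cortex libraries, and control tumours were 6.94-fold higher (log2 fold change 2.79, SE 0.40, adjusted p = 0.00029). Kcnk13, a leak channel of microglia, stood at 12.2, 10.7 and 7.50 CPM in control tumours, against 6.99, 9.22 and 10.9 CPM in cortex and was not called (log2 fold change -0.01, SE 0.27, adjusted p = 0.968). The sign of this small difference turned with edgeR, DESeq2 and TMM scaling. The second riser was Kcnk6, named after its values were seen (log2 fold change 1.44, SE 0.26, adjusted p = 0.00106).

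Of the 8 members of the KCa and KNa class, all tested, 7 fell and 1 rose. The riser was Kcnn4, the intermediate-conductance channel of red blood cells and immune cells, at 4.20, 8.67 and 8.15 CPM in ETV5 tumours, 5.22, 16.4 and 7.82 CPM in NPY tumours, 6.57, 7.37 and 2.23 CPM in control tumours and 0.269, 0.335 and 0.557 CPM in cortex. Tumour and cortex libraries did not overlap, and control tumours were 8.87-fold above cortex on the log2(value + 1) scale (log2 fold change 3.15, SE 0.54, adjusted p = 0.00081). Of 7 microglia and macrophage markers, none at 0 reads in a group, 6 were also above all cortex libraries in each tumour library, while P2ry12, a marker of resident microglia, was below them, at 51.3, 58.8 and 71.2 CPM in control tumours against 91.3, 115 and 92.7 CPM in cortex. The 7 summed to 1197 to 2494 CPM in ETV5 tumours, 2031 to 3823 CPM in NPY tumours, 2385 to 5227 CPM in control tumours and 456 to 534 CPM in cortex, and their part was not tested. Control replicate 3 had the lowest level of its group for Kcnn4 and for the sum, but the highest for P2ry12. ETV5 and control tumours overlapped in both the sum and Kcnn4, although the mean of the sum was lower in ETV5 tumours and that of Kcnn4 was not. Kcnt1, a channel opened by sodium, fell 7.10-fold (log2 fold change -2.83, SE 0.27, adjusted p = 2.4e-05).

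The auxiliary subunits followed the pores in number, with 10 of 13 tested potassium channel auxiliaries lower and 2 higher. Kcne3, a small partner of Kcnq1 in epithelia, stood at 13.9, 2.84 and 6.20 CPM in ETV5 tumours, 5.10, 0.487 and 29.2 CPM in NPY tumours, 2.97, 6.82 and 12 CPM in control tumours and 0.134, 0 and 0 CPM in cortex. A single read was counted in the cortex libraries together, so the ratio of control tumours to cortex was 137 with an exact 95% interval of 24.3 to 5444 that covers counting error only (log2 fold change 5.21, SE 0.61, adjusted p = 8e-05). Kcne1l, of the same family, was higher by a factor of 2.09 (log2 fold change 1.06, SE 0.33, adjusted p = 0.0176), a call lost without control replicate 2 and without cortex replicate 2. Kcnip2, which binds A-type channels and senses calcium, stood at 3.92, 2.86 and 7.18 CPM in control tumours, against 165, 162 and 222 CPM in cortex and had the largest fall of all tested members, 45.9-fold (log2 fold change -5.52, SE 0.29, adjusted p = 1.4e-06). Kcnab2, a beta subunit of shaker-type channels, stood at 168, 58.6 and 109 CPM in control tumours, against 525, 451 and 466 CPM in cortex and fell (log2 fold change -2.40, SE 0.31, adjusted p = 0.00015). Kcnmb1, the auxiliary of calcium-gated channels in smooth muscle, was not tested, with 0.635, 0.881 and 1.44 CPM in control tumours and 0.403, 0.503 and 1.53 CPM in cortex.

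The fall of Scn3b, a beta subunit of sodium channels, was 23.1-fold (log2 fold change -4.53, SE 0.20, adjusted p = 8.6e-07). Scn4b, which supports resurgent current, stood at 5.19, 3.19 and 18.0 CPM in control tumours, against 84.8, 66.8 and 357 CPM in cortex, with cortex replicate 3 far above the others (log2 fold change -4.38, SE 0.72, adjusted p = 0.00064). Its log2 fold change was -3.64 without cortex replicate 3 and -5.06 without control replicate 3.

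Among calcium channel pores 6 of 9 tested alpha1 subunits fell, 0 rose with limma, edgeR or DESeq2 (0 also at an unadjusted p under 0.05 with limma), and 3 were not called. Cacna1e, the R-type channel, fell to 28.7, 18.5 and 16.1 CPM in control tumours, against 204, 119.8 and 181 CPM in cortex (log2 fold change -3.17, SE 0.25, adjusted p = 9.3e-06). Cacna1i, a T-type channel that opens near the resting potential, stood at 84.6, 92.5 and 75.8 CPM in control tumours, against 91.9, 91.4 and 91.9 CPM in cortex and was not called (log2 fold change -0.30, SE 0.12, adjusted p = 0.0553), except without control replicate 2 (log2 fold change -0.39, adjusted p = 0.0225). The other T-type channels are named after their values were seen. Cacna1h was not called (log2 fold change -0.35, SE 0.29, adjusted p = 0.3), and Cacna1g fell (log2 fold change -1.86, SE 0.24, adjusted p = 0.00016). Per kb, Cacna1i made up 36.4 ± 1.52% of the alpha1 level in control tumours and 15.8 ± 1.77% in cortex (SD, n = 3).

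The alpha2delta subunits, which carry calcium channels to the membrane, were led per kb by Cacna2d2 in tumours and, on the mean, by Cacna2d1 in cortex. In cortex replicate 3, Cacna2d3, named after its values were seen, was ahead with 44.3% of the family's level against 40.4% for Cacna2d1. Cacna2d2 stood at 254, 130.3 and 443 CPM in ETV5 tumours, 178, 201 and 76.6 CPM in NPY tumours, 277, 188 and 212 CPM in control tumours and 32.4, 28.3 and 51.4 CPM in cortex. The tumour libraries were all above the cortex libraries, with the lowest in NPY replicate 3, and control tumours were 5.46-fold above cortex (log2 fold change 2.45, SE 0.23, adjusted p = 2e-05). Cacna2d1, the target of gabapentin, fell to 35.3, 47.9 and 64.5 CPM in control tumours, against 252, 279 and 222 CPM in cortex (log2 fold change -2.56, SE 0.21, adjusted p = 9.7e-06). Per kb, Cacna2d2 made up 87.9 ± 7.58% of this family in ETV5 tumours, 87.2 ± 4.83% in NPY tumours, 83.6 ± 5.55% in control tumours and 11.3 ± 3.01% in cortex (SD, n = 3).

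All 4 calcium channel beta subunits, which sit on the pore from the cytoplasm, fell. The fall of Cacnb4 was 13.5-fold (log2 fold change -3.75, SE 0.23, adjusted p = 2.7e-06). In this gene 16% of the exonic bases overlap a gene on the other strand. Cacnb3 fell by a factor of 9.69 (log2 fold change -3.28, SE 0.20, adjusted p = 2.4e-06). Of 6 tested gamma subunits 5 fell. Cacng3, which travels with AMPA receptors rather than calcium channels, fell to 2.12, 3.85 and 6.86 CPM in control tumours, against 82.5, 96.1 and 84.8 CPM in cortex (log2 fold change -4.64, SE 0.35, adjusted p = 7.3e-06). Cacng5, another AMPA receptor partner, stood at 20.4, 19.0 and 14.4 CPM in control tumours, against 13.2, 6.88 and 20.7 CPM in cortex, with overlapping groups, and was not called (log2 fold change 0.35, SE 0.36, adjusted p = 0.41).

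**Figure D4:**
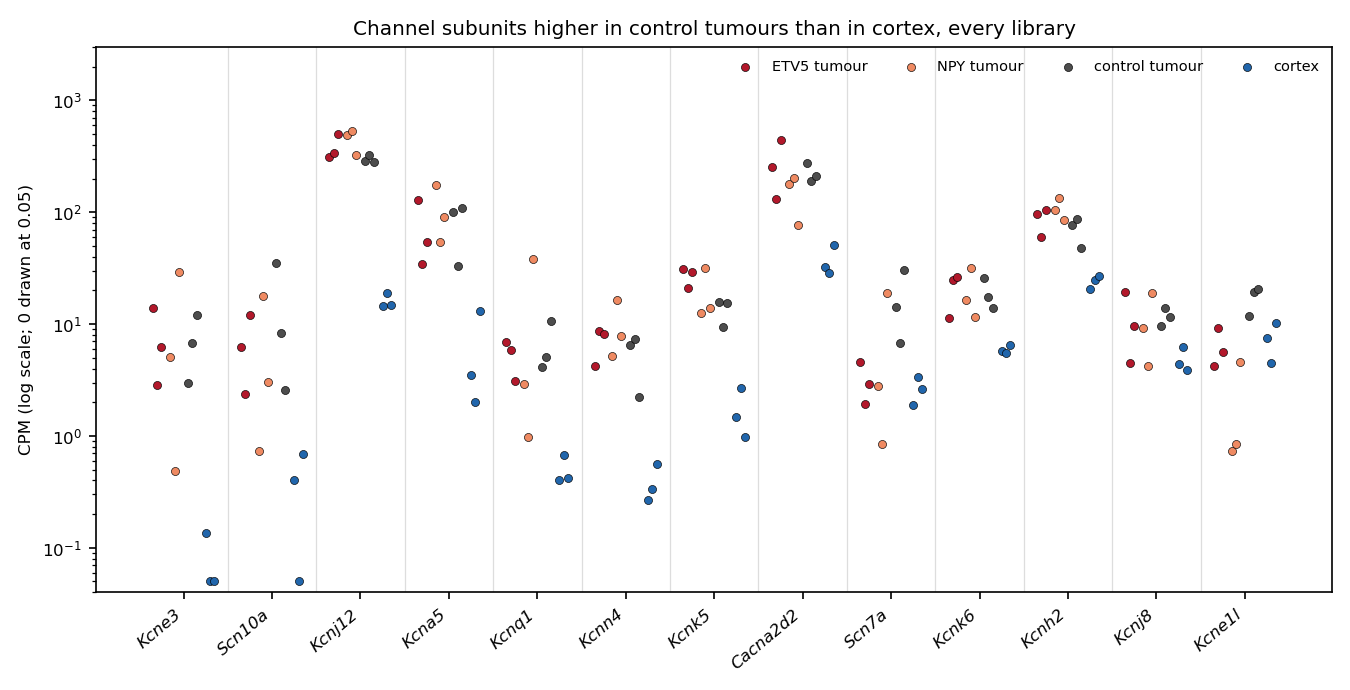
CPM in every library, on a log axis with 0 drawn at 0.05, for 13 of the 15 subunits that rose in control tumours over cortex, in the order ETV5 tumours, NPY tumours, control tumours and cortex within each gene. Kcnj12 lies between 281 and 534 CPM in the 9 tumour libraries and between 14.5 and 19.0 CPM in cortex, while the tumour points of Scn7a, Kcnj8 and Kcne1l reach down into the cortex range.

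Across all 9 tumour libraries, 13 of 137 members were above all 3 cortex libraries in CPM and 84 were below them, where 22.7% and 18.4% of all 24421 rows did so. Among the 13 were Cacna2d2, Kcna5, Kcna7, Kcne3, Kcnh2, Kcnj12, Kcnk5, Kcnk6, Kcnn4, Kcnq1 and Scn10a. Kcna7, a shaker-type channel of muscle, was not tested against cortex. It stood at 4.20, 5.08 and 1.95 CPM in ETV5 tumours, 8.62, 8.52 and 7.35 CPM in NPY tumours and 1.16, 8.81 and 2.07 CPM in control tumours and had 0 reads in cortex. Against a floor of 3 reads over the group, which is a limit for counting error only, it was at least 23.6-fold higher in ETV5 tumours, at least 55.6-fold higher in NPY tumours and at least 28.8-fold higher in control tumours than in cortex. Kcnk9, an acid-sensitive leak channel, had 0 reads in NPY tumours and 10.3, 8.55 and 10.3 CPM in cortex, at least 88.1-fold lower in NPY tumours by the same floor. It fell in control tumours to 0.212, 0.660 and 1.6 CPM (log2 fold change -3.83, SE 0.54, adjusted p = 0.00026). For genes with few reads the size of a change moved with the pseudocount: with 5 in place of 1, the log2 fold change of control tumours over cortex was 3.28 for Kcne3, 3.29 for Scn10a, 2.47 for Kcnq1 and 2.33 for Kcnn4. On the lower side it was -3.75 for Kcng1, -3.74 for Kcnh5 and -4.24 for Kcnh7, and edgeR gave 6.65 for Kcne3 and 5.13 for Scn10a.

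Per kb, Kcnj12 and Kcnj10 also changed places between tissue and tumour. Kcnj12 stood at 139.7 ± 36.7 CPM per kb in ETV5 tumours, 164 ± 40.4 in NPY tumours, 108 ± 8.17 in control tumours and 5.84 ± 0.908 in cortex (SD, n = 3). Kcnj10 stood at 50.8 ± 24.7 CPM per kb in ETV5 tumours, 34.6 ± 11.8 in NPY tumours, 76.2 ± 4.0 in control tumours and 75.6 ± 16.8 in cortex. The libraries of these genes did not overlap in any of the 4 groups.

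Of 27 listed genes that work with these channels but lie outside the symbol rule, all tested, 25 fell in the same contrast and 2 rose, with a median log2 fold change of -3.20. Over all genes tested, 36.2% fell and 35.7% rose. The list held pacemaker channels, partners of A-type channels, ankyrins and sodium channel-binding FGFs. Cntnap2, which clusters axonal potassium channels, fell with limma (log2 fold change -4.22, SE 0.32), as did Nalcn, the sodium leak channel (log2 fold change -3.72, SE 0.11). The risers were Abcc9 (log2 fold change 1.39, SE 0.28), the partner of Kcnj8, and Stac2 (log2 fold change 1.19, SE 0.21), an adaptor of calcium channels.

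Adding ETV5 was assessed against control tumours, for the effect of the factor on channel expression. No channel gene passed, and the values leaned downward. Of 98 tested members 0 were called with limma, as were 0 of 14382 genes (0%), with a lowest adjusted p of 0.732. At an unadjusted p under 0.05 there were 13 members, 1 higher and 12 lower, where 1.89% and 4.67% of all genes were. The edgeR test called 0 members and DESeq2 2, both lower. Over all genes tested, edgeR called 0, and DESeq2 called 58 lower and 17 higher. The log2 fold change was positive for 16 members and negative for 82, with a median of -0.67, against -0.02 over all genes tested. All 3 ETV5 libraries were above all 3 control libraries for 3 members and below them for 19, where 6.26% and 7.48% of all genes tested did so. The excitatory neuron markers stood at 1.28, 8.73 and 3.50% of cortex in the ETV5 libraries and 6.36, 8.35 and 12.6% in the control libraries, and their part in these values was not tested. ETV5 replicate 3 carries the code prefix EC in its label and the other 5 libraries DS, and a limma fit with the prefix as a term called 0 members as well.

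The positive values of largest size, among members with at least 5 CPM, included those of Kcnk5 and Kcnip1. Kcnk5 stood at 31.0, 20.9 and 29.3 CPM in ETV5 tumours, against 15.9, 9.36 and 15.3 CPM in control tumours, without overlap (log2 fold change 1.0, SE 0.28, adjusted p = 0.732 with limma). Kcnip1, an A-type channel auxiliary, also did not overlap, at 5.51, 5.98 and 8.5 CPM in ETV5 tumours, against 5.29, 2.64 and 3.99 CPM in control tumours (log2 fold change 0.74, SE 0.38, adjusted p = 0.732). Kcnq1ot1 was the third member whose ETV5 libraries were all higher, 26.9, 13.0 and 18.2 CPM in ETV5 tumours, against 10.8, 11 and 12.6 CPM in control tumours (log2 fold change 0.68, SE 0.30, adjusted p = 0.732).

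The negative values of largest size, by the same limit of 5 CPM in the higher group, were those of Scn7a, Kcnh3 and Cacna1b. Scn7a stood at 4.59, 1.94 and 2.92 CPM in ETV5 tumours, against 14.1, 6.82 and 30.5 CPM in control tumours (log2 fold change -2.23, SE 0.58, adjusted p = 0.732 with limma), with the ETV5 libraries below the control libraries. Cacna1b, the N-type channel of presynaptic terminals, likewise did not overlap, at 2.49, 8.82 and 3.72 CPM in ETV5 tumours, against 20.5, 16.8 and 21.4 CPM in control tumours (log2 fold change -2.14, SE 0.47, adjusted p = 0.732). These were the pair that DESeq2 called lower, with log2 fold changes of -2.41 (adjusted p = 0.0316) and -1.98 (adjusted p = 0.0153). Kcnh3, a forebrain channel of the ether-a-go-go family, stood at 0.262, 8.07 and 4.87 CPM in ETV5 tumours, against 8.58, 9.14 and 19.6 CPM in control tumours (log2 fold change -2.21, SE 1.13, adjusted p = 0.732). Leaving out ETV5 replicate 1 gave a log2 fold change of -0.86, leaving out ETV5 replicate 2 one of -3.05. ETV5 replicate 2, the ETV5 library with the most neuronal marker reads, was also the highest of its group for Kcnk1 at 4.59, 81.9 and 5.85 CPM in ETV5 tumours. The summed pan-neuronal level was 8.85% of cortex in this library and 14.5% in control replicate 3. Control tumours averaged 31.6 CPM of Kcnk1 (SD 3.18, n = 3). The part of neuronal tissue in these levels was not tested.

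Kcnj12, Kcna5 and Cacna2d2 did not pass between ETV5 and control tumours either. The log2 fold change was 0.33 for Kcnj12 (SE 0.23), -0.22 for Kcna5 (SE 0.60) and 0.12 for Cacna2d2 (SE 0.45). Of the 22 associated genes tested, 0 were called in each direction, 4 were positive and 18 negative, with a median of -0.58; edgeR and DESeq2 also called 0 of them, and 0 had an unadjusted p under 0.05 with limma.

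Adding NPY was assessed in the same way for the peptide precursor; the control libraries are those of the ETV5 comparison, so the values of both comparisons share their baseline. The channel genes called in NPY tumours all fell, led by the gamma subunit Cacng3 and the potassium channels Kcnj6 and Kcnh3. Of 98 tested members 29 fell with limma and 0 rose, where 4.31% of 14425 genes tested fell, 0.728% rose and 5.04% were called in all. The median log2 fold change was -1.38 over the tested members and 0.04 over all genes. At an unadjusted p under 0.05, 57 members were lower and 4 higher, where 13.1% and 10.4% of all genes were. The edgeR test called 28 members lower and DESeq2 42, and neither called a member higher. Over all 14425 genes tested, edgeR called 607 lower and 78 higher, and DESeq2 1227 lower and 606 higher. All 3 NPY libraries were below all 3 control libraries for 56 members and above them for 3 in the deposited value, where 15.8% of all genes did so in each direction. Falls of at least 4-fold were called for 22 members and rises of that size for 0, where 2.63% and 0.0416% of all genes reached them. By family the falls were 11 Kv alpha, 5 Kir, 4 gamma calcium channel subunits, 2 each of the potassium auxiliaries, K2P channels and sodium alpha subunits, and 1 each of the sodium beta, alpha2delta and calcium beta subunits.

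The count moved with single libraries. It was 4, 0 and 2 lower without control replicates 1, 2 and 3, and 3, 25 and 11 lower without NPY replicates 1, 2 and 3, the last with 1 member higher. The count over all genes moved as well. In the same fits it was 136, 1 and 77 lower without control replicates 1, 2 and 3. Without NPY replicates 1, 2 and 3 it was 120, 502 and 471 lower, the last with 42 genes higher. All NPY libraries carry the code prefix EC in their labels and all control libraries DS, so the prefix, whose meaning the labels do not give, and the added gene cannot be told apart. The precursor of ribosomal RNA, Rn45s, had 1461, 4363 and 5869 CPM in NPY tumours against 754, 618 and 754 CPM in control tumours. It also varied within the other groups, with 1409, 1079 and 5503 CPM in ETV5 tumours and 735, 3943 and 732 CPM in cortex. The pan-neuronal markers summed to 80.3, 48.1 and 127 CPM in NPY tumours and 375, 371 and 931 CPM in control tumours, with 7 of the 8 lower without overlap and none at 0 reads in a group. The part of these in the falls was not tested.

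Of the 4 G protein-gated inward rectifiers, Kcnj3, Kcnj6 and Kcnj9 were called lower in NPY tumours, and Kcnj5 had too few reads to be tested. Kcnj9 stood at 0.486, 0.487 and 0.286 CPM in NPY tumours, against 5.72, 6.16 and 11.3 CPM in control tumours (log2 fold change -3.75, SE 0.43, adjusted p = 0.0129 with limma). Kcnj3, its usual partner, stood at 0.607, 0.974 and 0.572 CPM in NPY tumours, against 5.51, 6.71 and 19.5 CPM in control tumours (log2 fold change -3.40, SE 0.54, adjusted p = 0.0244). Of the exonic bases of Kcnj3, 31.1% overlap a gene on the other strand. Kcnj6 was counted once in the 3 NPY libraries together, against 1.48, 1.98 and 2.55 CPM in control tumours (log2 fold change -3.81, SE 0.57, adjusted p = 0.0212), a ratio of 0.0192 with an exact 95% interval of 0.000476 to 0.112. The groups did not overlap for any of these 3. Of the 10 largest falls, those of Kcnh3 and Scn2b lost the call only without control replicate 2 among the libraries left out, and that of Kcnj9 without control replicate 2 or 3. Kcnj3, Kcnj6, Kcnj11, Kcnc1, Kcne1l, Cacng2 and Cacng3 lost it without each of the control libraries and also without NPY replicate 1. Without NPY replicate 2 the call was lost for Kcnj11, Kcne1l and Cacng2. Kcnj11, the pore of the channel inhibited by ATP in neurons and beta cells, also fell, to 0.364, 0.122 and 0.286 CPM in NPY tumours, against 2.22, 2.42 and 6.86 CPM in control tumours (log2 fold change -3.20, SE 0.60, adjusted p = 0.0345).

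Among the voltage-gated pores Kcnh3 had the largest fall, at 0.729, 0.730 and 0.572 CPM in NPY tumours, against 8.58, 9.14 and 19.6 CPM in control tumours (log2 fold change -3.80, SE 0.41, adjusted p = 0.0122 with limma). Kcnc1, a shaw-type channel of fast spiking, stood at 2.06, 0.365 and 1.53 CPM in NPY tumours, against 8.05, 10.7 and 14.7 CPM in control tumours (log2 fold change -3.11, SE 0.61, adjusted p = 0.0395). Kcnc2 and Kcnc4, of the same type and named after their values were seen, had log2 fold changes of -2.87 and -3.07 with SE of 0.50 and 0.49. Without NPY replicate 2, the lowest library, the value of Kcnc1 was -2.46. Scn2a1 stood at 2.67, 2.19 and 2.29 CPM in NPY tumours, against 12.5, 14.6 and 29.5 CPM in control tumours, with NPY libraries close together and below all controls (log2 fold change -2.74, SE 0.36, adjusted p = 0.0155).

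The auxiliary subunits that fell included Scn2b, a sodium channel beta subunit, at 1.82, 1.34 and 1.53 CPM in NPY tumours, against 13.4, 13.4 and 31.9 CPM in control tumours (log2 fold change -3.35, SE 0.40, adjusted p = 0.0137 with limma). Of the gamma subunits, Cacng3 stood at 0, 0.243 and 0.0954 CPM in NPY tumours, against 2.12, 3.85 and 6.86 CPM in control tumours (log2 fold change -4.18, SE 0.67, adjusted p = 0.0243), which is 3 reads in all and a ratio of 0.0282 with an exact 95% interval of 0.00571 to 0.0848. Cacng2, stargazin, stood at 0.243, 0.122 and 0.191 CPM in NPY tumours, against 1.48, 2.53 and 4.47 CPM in control tumours (log2 fold change -3.10, SE 0.56, adjusted p = 0.0313). Cacng5 fell as well (log2 fold change -1.46, SE 0.30, adjusted p = 0.0425), as did Cacng7, named after its values were seen (log2 fold change -1.58, SE 0.31, adjusted p = 0.0391). Kcne1l stood at 0.729, 0.852 and 4.58 CPM in NPY tumours, against 11.8, 19.3 and 20.6 CPM in control tumours (log2 fold change -3.34, SE 0.69, adjusted p = 0.0457). The edgeR test did not call it (adjusted p = 0.0702), and its log2 fold change was -4.13 without NPY replicate 3. With a pseudocount of 5 the log2 fold change in NPY tumours was -2.64 for Cacng3, -2.003 for Cacng2, -2.01 for Kcnj6, -2.93 for Kcnj9, -2.19 for Kcnj11 and -3.20 for Kcnh3, and edgeR gave -5.26 for Kcnj6 and -5.03 for Cacng3.

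The positive values of largest size included, by the same limit, those of Kcna7 and Kcnn4, which did not pass. Kcna7 stood at 8.62, 8.52 and 7.35 CPM in NPY tumours, against 1.16, 8.81 and 2.07 CPM in control tumours (log2 fold change 1.58, SE 0.70, adjusted p = 0.236 with limma), with control replicate 2 above every NPY library and a log2 fold change of 2.40 without it and 0.98 without control replicate 1. The value of Kcnn4 was 0.94 (SE 0.61). Kcnj12 and Cacna2d2 again did not pass, with log2 fold changes of 0.65 for Kcnj12 (SE 0.22) and -0.59 for Cacna2d2 (SE 0.38). The libraries of NPY and control tumours did not overlap for Kcnj12, at 491, 534 and 324 CPM in NPY tumours, against 288, 323 and 281 CPM in control tumours, with the lowest NPY library just above the highest control. Kcnj10 was near the threshold, at 138, 259 and 164 CPM in NPY tumours, against 394, 405 and 436 CPM in control tumours, without overlap (log2 fold change -1.11, SE 0.24, adjusted p = 0.0538). The astrocyte markers summed to 768, 477 and 1832 CPM in NPY tumours and 4448, 3904 and 3875 CPM in control tumours, with all 7 lower without overlap, and their part was not tested. Of the 22 associated genes tested 8 fell and 0 rose, also 0 with edgeR and DESeq2, with a median log2 fold change of -1.38. Over all genes tested with limma, 4.31% fell and 0.728% rose. Among the 8 associated genes were Cntnap2 (log2 fold change -3.04, SE 0.50) and Dpp10, a partner of A-type channels (log2 fold change -3.12, SE 0.36).

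**Figure D5:**
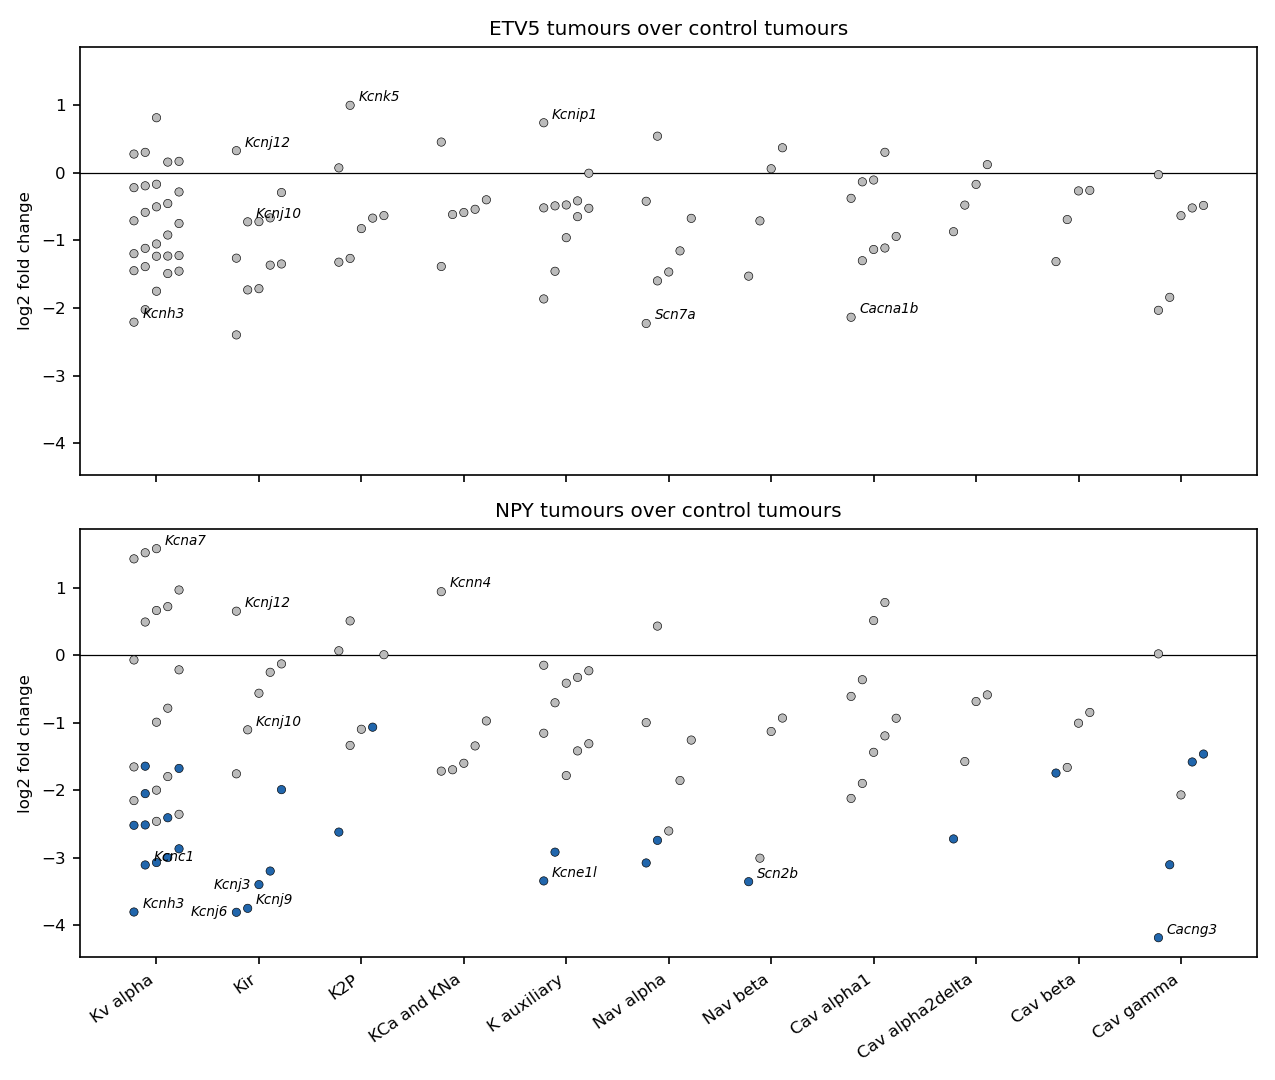
Log2 fold change of each tested subunit by family, in ETV5 tumours over control tumours (upper panel) and NPY tumours over control tumours (lower panel), on the same linear axis. Blue points fell at an adjusted p under 0.05 and grey points were not called: 0 points are blue in the upper panel and 29 in the lower, down to -4.18 for Cacng3.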

How the data were processed

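PolyA RNA was sequenced paired-end from a stranded kit, per the labels. Per the submitters' processing notes, FastQC 0.11.7, MultiQC 1.6, STAR 2.5.0a, the mm10 build and DESeq2 1.30.1 were used; the sources used here name neither the read counter nor its annotation. The authors deposited 2 tables of normalized signal, reads divided by 1 size factor per library. Whole reads could be recovered for 100% of values (tolerance 0.01 read), and the control libraries held identical reads in both tables. CPM was computed from these reads. Genes with at least 10 reads in 3 libraries and 15 in all were kept (filterByExpr of edgeR 4.0.16) and tested with limma 3.58.1 (trend and robust) on log2(deposited value + 1), 2 groups per fit, two-sided, with Benjamini-Hochberg adjustment over all genes tested and a threshold of 0.05. Because the values are normalized, edgeR and DESeq2 1.42.0 on the recovered reads served as alternatives, beside other pseudocounts, filters, scaling, a replicate block and leaving out each library. The limma fit was checked on simulated data, and the alternatives and the exact intervals were not.

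Named genes were the 8 called rises and 12 called falls of largest size over cortex with at least 5 CPM and no overlap, the member with the highest CPM of each family in cortex and in control tumours, up to 10 calls and the 3 largest values in each direction per added gene, members at 0 reads in a group, and 10 further genes. Where the text names other members, it says so. Some items that meet this rule are not reported here. The members and lists were chosen with earlier results of these data known. Gene positions and exon lengths came from GENCODE M21 (mm10), which matched 137 of 137 members, and promoter windows from RefSeq (GRCm38.p6). Intervals and floors from reads cover counting error only.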

Additional observations from a re-analysis of the deposited data

How the results depend on the processing

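For the genes named by rule between control tumours and cortex, 568 values recomputed under an alternative kept their direction and their side of the threshold. Of the other values for these genes, 3 lost a call, 1 gained one, and 8 small uncalled values turned sign. Of all 104 members called, 99 kept the call with the ETV5 libraries in the fit. With the stricter filter, which tests fewer members, 85 kept it, and with a library left out 101 to 104. Kcnk13 was 0.0343 with edgeR, 0.036 with DESeq2 and 0.0152 with TMM scaling (log2 fold change), and between -0.20 and 0.21 when a library was left out. Cacng5 was between -0.0484 and 0.71 and Kcnj10 between -0.27 and 0.0535 when a library was left out. The cause was not tested. Between ETV5 and control tumours, DESeq2 called 2 members lower and 75 genes in all, against 0 with limma. Between NPY and control tumours, 18 members were lower with the stricter filter, which tests fewer genes, and 9 with the replicate block, of which 7 were among the 29; leaving out a library gave 0 to 25 lower and 0 to 1 higher. Over all genes the NPY comparison called 727 with limma, 1833 with DESeq2, 563 with the stricter filter, 264 with the block and 1 to 571 with a library left out. The deviations of libraries with the same replicate number from their group means had correlations of -0.39 to 0.37 over the 3 comparisons. Those of libraries with other numbers ran from -0.54 to 0.51. With 3 libraries a group these values cannot decide whether samples were paired, and the labels do not say. With 3 libraries a group and 5962376 to 11291057 reads, members under a few CPM carry wide counting error.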
